A study of Mus musculus with 12 samples.

Results

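Ribosomal protein genes were followed in RNA sequencing of mouse CD8+ T cells, the lymphocytes that kill infected and tumour cells. Genes were taken by symbol: Rpl and Rps names for proteins of the cytosolic ribosome, and Mrpl and Mrps names for proteins of the mitochondrial ribosome. The pattern matched 167 of the 55487 genes in the deposited count table, and 161 had a mean of at least 1 count per 1000000 counts (CPM) over the 12 libraries. Of these, 84 were cytosolic (50 for the large subunit, 34 for the small) and 77 were mitochondrial (48 large, 29 small). The annotation lists 4 of the cytosolic members (Rpl32l, Rpl6l, Rps3a2 and Rps3a3) as processed pseudogenes, which are kept because the symbol is the rule. All 161 also passed the filter on low counts and were among the 15897 genes tested.

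The cells came from splenocytes of C57BL/6 mice and had been given interleukin-2 (IL-2), a growth factor for activated T cells, or interleukin-12 (IL-12), a cytokine of antigen-presenting cells that drives effector functions. Each cytokine was used alone or with 80%TCM, an addition that the labels do not spell out and that is called TCM here. This gave 4 groups of 3 libraries: IL-2 and IL-12 for the cytokines alone, IL-2 80%TCM and IL-12 80%TCM for the pairs with TCM. No group without a cytokine was analysed here. The labels used here give no age, dose or time and tie no library to a mouse or culture, so the p-values measure the spread between these libraries, which may be technical. The extraction text in the labels speaks of livers, but the summed level of 8 T cell and CD8 markers was 4069 to 4950 CPM in every library, with none of the 8 at 0.

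The cytosolic ribosome translates nuclear-encoded messengers, while the mitochondrial ribosome makes a few membrane proteins of the respiratory chain. The proteins of both are encoded in the nucleus, and those of the mitochondrial ribosome are imported. Many cytosolic ribosomal protein messengers begin with a run of pyrimidines, the 5′ terminal oligopyrimidine tract, through which growth signalling controls their translation. Activated T cells are known to make more of both kinds of ribosome as they grow and divide.

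The start sites of members that recur in the results are shown to compare the 2 sets at the tract itself. Each line holds 15 bases before and 15 from the annotated start, 5′ to 3′ on the gene's strand, from RefSeq on GRCm38.p6, and capitals mark an unbroken run of C or T that begins at the start base.
Rps6 (chr4:86857353-86857382, minus strand): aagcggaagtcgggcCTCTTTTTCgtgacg
Rps15a (chr7:118116133-118116162, minus strand): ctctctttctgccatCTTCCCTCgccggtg
Rpl38 (chr11:114668565-114668594, plus strand): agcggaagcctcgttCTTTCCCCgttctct
Rps27 (chr3:90213634-90213663, minus strand): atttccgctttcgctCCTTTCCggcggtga
Rps27l (chr9:66946071-66946100, plus strand): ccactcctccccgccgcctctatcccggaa
Mrpl52 (chr14:54426894-54426923, plus strand): tgccggggccacgccCacttccggttccct
Mrps5 (chr2:127587411-127587440, plus strand): gctgctccggctccagcatggcggcggccg
The first 4, all cytosolic, carry a run of at least 5 bases. Rps27l, a cytosolic paralogue of Rps27, has none at its annotated start, and neither have the 2 mitochondrial members beyond a single base. A run of 5 that begins with C does lie within 2 bases of the start in Rps27l and Mrpl52, but not in Mrps5.

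The promoter table held 61 of the 84 cytosolic and 68 of the 77 mitochondrial members. Some genes have several listed starts, and a gene was counted if any of them had the feature. A run of 5 C or T that begins with C at the annotated start was present in 14 of 61 cytosolic members (23%), in 0 of 68 mitochondrial members and in 3.01% of the 27025 genes of the table. Allowing the run to begin up to 2 bases to either side gave 36.1%, 11.8% and 10.6%. The motif CCGGAAG was searched on both strands of windows of 300 bases around the start. It was found in 41% of cytosolic members, 36.8% of mitochondrial members and 9.93% of all genes of the table. AAGATGGC was in 9.84%, 17.6% and 3.19% and CACGTG in 9.84%, 7.35% and 8.09%, and the palindrome bound by NRF1 was in 3.28%, 4.41% and 1.07%. By these letters alone, CCGGAAG was frequent in both sets and the pyrimidine start in the cytosolic set. Runs farther from the annotated start, as before that of Rpl4, were not counted, so the shares with a run may be too low.

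The sets also differed in level and in how far their reads are their own. Per kilobase of the principal transcript, the median level was 1138 CPM for cytosolic members (range 1.63 to 3221) and 19.0 CPM for mitochondrial members (range 3.28 to 84.6). The length taken was that of the longest principal transcript, or of the longest transcript where none was marked. A long annotated form, as in Rps15a (5179 bases), makes this level low. A median of 24.6% of the 50-base stretches of a cytosolic gene's exons recurred in another annotated gene, against 2.9% for mitochondrial genes. At least 50% recurred in 10 cytosolic and 2 mitochondrial members, among them Rps3a1, Rps3a2 and Rps3a3, so their counts are uncertain. The share was taken over all annotated transcripts of a gene, with matches on either strand. A share below 50% can still cover much of the main messenger, so counts of other cytosolic members may be uncertain too. An intron held a small nucleolar RNA in 30 of 84 cytosolic and 0 of 77 mitochondrial members. The lowest members by mean level were Rpl24 (1.11 CPM), whose exons overlap the readthrough gene Gm28037 on the same strand over 47% of their bases, and Rps10 (3.34 CPM), which overlaps RPS10-NUDT3 over 20.6%. The 6 genes just outside the minimum were Rps4l (0.661 CPM), Rpl39l (0.524 CPM), Rpl3l (0.139 CPM), and Rpl10l, Rps12l1 and Mrpl53, which had no count.

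Library totals ran from 19500568 to 26007717 counts, with 2 deeper ones (49638920 and 42349121) among the IL-12 libraries. Without and with TCM, the IL-2 library numbered 3 was unlike the other 2 of its group. Pairs within a group that held it had a chi-square per degree of freedom of 28.5 to 45.4, and all other pairs had 2.4 to 5.51. Deviations from the group means ran together in same-numbered libraries of the 2 IL-2 groups (correlations of 0.38, 0.34 and 0.65 across genes), but libraries 1 and 2 ran together across their numbers as well (0.4 and 0.36), so what the values set apart is library 3. Counts of members with the replicate number as a block in these 2 groups, or without both libraries numbered 3, are given where they moved by over 1.5 times. The shares of all genes called in those fits are not given beside them, so a move is not read as particular to the members. Scaling also bears on the cytokine comparisons: without the trimmed-mean (TMM) factors, plain library totals lower every IL-12 against IL-2 log2 fold change by 0.114 without TCM and 0.116 with it.

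As a share of all counts, cytosolic ribosomal protein genes did not separate the groups. They took 8.86%, 8.64% and 8.27% of the counts in the IL-2 libraries, 8.18%, 8.64% and 8.64% in IL-2 80%TCM, 8.38%, 8.5% and 8.66% in IL-12, and 8.3%, 8.71% and 8.27% in IL-12 80%TCM. The 4 groups overlapped, and their means lay between 8.43% and 8.59%. Within the set, small-subunit counts per 100 large-subunit counts, a ratio that needs no scaling, were 79.05, 78.92 and 79.35 in IL-2, 78.15, 78.72 and 78.64 in IL-2 80%TCM, 79.26, 79.74 and 79.02 in IL-12, and 76.96, 77.67 and 78.01 in IL-12 80%TCM. Every library with TCM lay below every library without it, and the IL-12 80%TCM libraries lay below all others, by small amounts on which no test was run.

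Mitochondrial ribosomal protein genes took a far smaller share that was highest with IL-12 alone. It was 0.264%, 0.264% and 0.238% in IL-2, 0.248%, 0.257% and 0.25% in IL-2 80%TCM, 0.272%, 0.269% and 0.264% in IL-12, and 0.242%, 0.251% and 0.243% in IL-12 80%TCM. Every IL-12 library lay above every IL-12 80%TCM library, whereas the IL-2 groups overlapped. For every 100 cytosolic counts, a ratio that needs no scaling between libraries, there were 3.24, 3.16 and 3.05 mitochondrial counts with IL-12 and 2.91, 2.88 and 2.94 with IL-12 80%TCM. The IL-2 libraries gave 2.98, 3.06 and 2.88 without TCM and 3.03, 2.98 and 2.89 with it, so these groups overlapped with each other, and the highest IL-2 library lay above the lowest IL-12 library. The data are from bulk RNA, in which fewer cells of a type and less RNA per cell cannot be told apart.

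**Figure D1:**
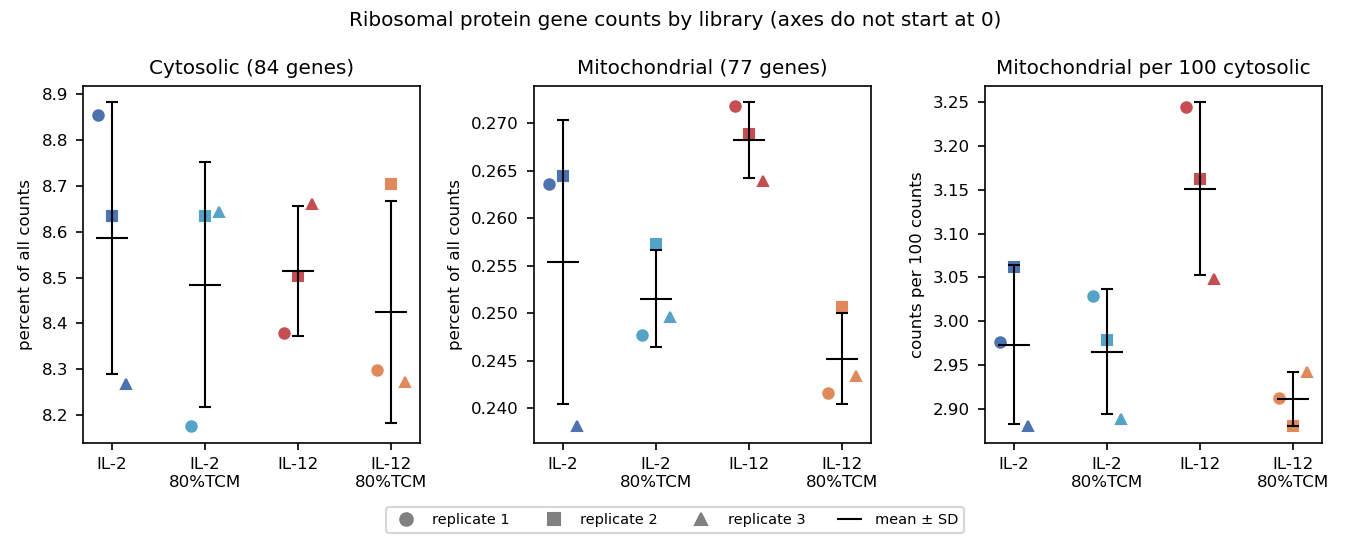
Counts on ribosomal protein genes in each of the 12 libraries, as a percent of all counts for the 84 cytosolic genes and the 77 mitochondrial genes, and as mitochondrial counts per 100 cytosolic counts; symbols are replicates, black lines the mean and SD (n = 3), and the vertical axes do not start at 0. The cytosolic shares of the 4 groups overlap, while all IL-12 libraries lie above all IL-12 80%TCM libraries in the other 2 panels.

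The first comparison asked what TCM changed in IL-2. Of the 84 cytosolic genes, 1 rose (Rps15a) and 2 fell (Rpl41 and Rps4x), and of the 77 mitochondrial genes 1 rose (Mrps16) and 4 fell (Mrpl9, Mrpl27, Mrpl46 and Mrps5), by edgeR's quasi-likelihood test at an adjusted p below 0.05. These shares of 3.57% and 6.49% lie below the 14.5% called over all genes tested (6.73% higher, 7.82% lower). The median log2 fold change was -0.04 for cytosolic, -0.06 for mitochondrial and 0.00446 for all genes. None of the 8 calls was kept in each of the 12 fits that left out 1 library. The summed level of 5 platelet markers was 101.1 to 124.9 CPM in IL-2 and 41.67 to 53.65 CPM in IL-2 80%TCM, and its part in these calls was not tested.

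Mrps16, a small-subunit protein of the mitochondrial ribosome, was at 50.2, 50.5 and 45.0 CPM in IL-2 and at 54.3, 60.6 and 59.1 CPM in IL-2 80%TCM. The groups did not overlap, as for 27.4% of all genes, and its level rose by a log2 fold change of 0.26 ± 0.06 (SE; adjusted p = 0.0143, edgeR). Without replicate 2 of IL-2 80%TCM the adjusted p was 0.0625. Mrpl27, of the large subunit, was at 32.6, 32.2 and 30.9 CPM in IL-2 and at 26.1, 28.8 and 26.0 CPM in IL-2 80%TCM, again without overlap. It fell by 0.24 ± 0.06 on the log2 scale (adjusted p = 0.0205, edgeR), and its adjusted p was 0.102 and 0.0859 without replicate 1 or 2 of IL-2 and 0.0766 and 0.058 without replicate 1 or 3 of IL-2 80%TCM. Rpl41, which encodes the shortest cytosolic ribosomal protein, fell from 1235, 1198 and 1128 CPM to 1084, 969 and 1006 CPM (log2 fold change -0.22 ± 0.06, adjusted p = 0.0256, edgeR). Over the alternatives run, its adjusted p ran from 0.00181 to 0.147.

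More members passed once the IL-2 libraries numbered 3 were set aside, but the share of all genes called in that fit is not given here. Without replicate 3 of both IL-2 groups, 12 cytosolic members (1 higher, 11 lower) and 9 mitochondrial members (1 higher, 8 lower) were called. With the replicate block, 5 cytosolic members were called (1 higher, 4 lower). Single libraries also moved the count of mitochondrial members: it was 1 without replicate 1 or 2 of either IL-2 group and 10 without replicate 3 of IL-2. For cytosolic members it was 0 without replicate 1 or 2 of IL-2, replicate 1 of IL-12, or replicate 1 or 3 of IL-12 80%TCM, and 1 without replicate 2 or 3 of IL-2 80%TCM or replicate 2 or 3 of IL-12. IL-12 libraries enter because 1 fit to all 4 groups estimates the spread.

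The second comparison asked what TCM changed in IL-12, and here the mitochondrial set moved one way. Of 77 mitochondrial ribosomal protein genes, 23 fell and 0 rose, and the remaining 54 did not pass. At an unadjusted p below 0.05 there were 31 lower and 1 higher, and DESeq2 called 25 lower and 0 higher, without the shares of all genes beside these counts. The share called, 29.9%, is close to the 29.0% called over all genes, but all genes divided evenly into 14.8% higher and 14.2% lower. The median log2 fold change was -0.12, with 65 of 77 values below 0, against 0.01 over all genes. Large-subunit genes (16 of 48 fell) and small-subunit genes (7 of 29 fell) had medians of -0.15 and -0.10.

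Mrps28, a small-subunit protein gene on mouse chromosome 3 (GRCm38, 8802146 to 8923918, minus strand), had the lowest log2 fold change of the 161 members. Its level was 11.1, 11.5 and 11.6 CPM in IL-12 and 6.29, 6.59 and 6.49 CPM in IL-12 80%TCM. The groups did not overlap, as for 52.1% of all genes, and the level was 1.76-fold lower with TCM (log2 fold change -0.82 ± 0.10, adjusted p = 9.25e-05, edgeR). In IL-2 it was 8.2, 8.58 and 7.1 CPM without TCM and 7.27, 8.15 and 7.26 CPM with it. These groups overlapped (log2 fold change -0.07 ± 0.10, adjusted p = 0.672, edgeR).

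Mrps18b, 1 of several genes for the S18 protein of the mitochondrial small subunit, was at 12.2, 13.5 and 11.5 CPM in IL-12 and at 8.17, 7.32 and 7.39 CPM in IL-12 80%TCM. The libraries did not overlap (log2 fold change -0.70 ± 0.11, adjusted p = 0.00054, edgeR). Mrps5, also of the small subunit, fell from 43.9, 43.6 and 43.0 CPM to 31.0, 31.7 and 28.2 CPM (log2 fold change -0.52 ± 0.06, adjusted p = 8.42e-05, edgeR). All 3 of these genes, and Mrpl1, Mrpl11, Mrpl21, Mrpl27, Mrpl37, Mrpl46, Mrps7 and Mrps14, passed under all 26 alternative settings. These 11 genes were singled out after their values were seen. Among them, Mrpl11 fell by 0.44 and Mrps14 by 0.38 on the log2 scale.

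The count of mitochondrial members that fell depended on the libraries. It was 11 without replicate 1 of IL-12 and 15 without replicate 1 or 3 of IL-12 80%TCM. With the replicate block in the IL-2 groups 34 fell and 1 rose, and without both IL-2 libraries numbered 3 38 fell and 1 rose. Markers of other cells moved in the same comparison: the summed level of 4 CD4 T cell markers was 16.4 to 17.4 CPM in IL-12 and 29.2 to 32.8 CPM in IL-12 80%TCM, and that of 5 platelet markers, of which up to 1 was at 0 in a library, was 57.6 to 68.5 CPM and 23.2 to 29.2 CPM. The sum over 5 B cell markers was 6.3 to 8.06 CPM and 8.5 to 9.58 CPM, and that over 5 myeloid markers 6.43 to 8.06 CPM and 10.01 to 10.99 CPM. Their part in the result was not tested.

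**Figure D2:**
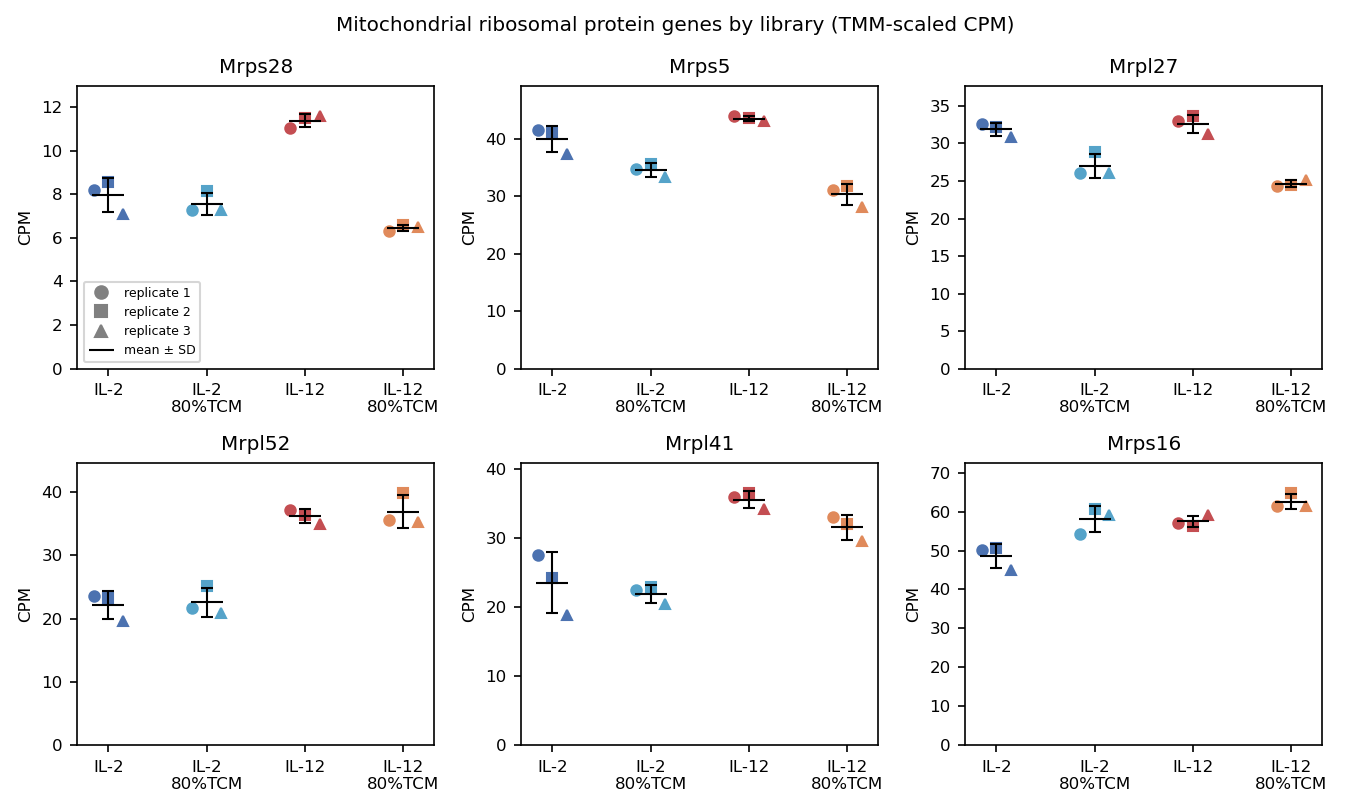
Levels of 6 mitochondrial ribosomal protein genes in CPM on TMM-scaled totals, by library (symbols are replicates, black lines the mean and SD, n = 3). Mrps28, Mrps5 and Mrpl27 are lower with TCM in IL-12, Mrpl52 and Mrpl41 are higher with IL-12 than with IL-2, and Mrps16 is lowest in the IL-2 group.

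The cytosolic set showed no such shift with TCM in IL-12. Of its 84 members, 3 rose (3.57%) and 9 fell (10.7%), against 14.8% higher and 14.2% lower over all genes. The share called was 14.3%, against 29.0% of all genes, and the median log2 fold change was -0.00527. The members that rose were Rpl27a, Rpl38 and Rps15a, and those that fell were Rpl10, Rpl14, Rpl22l1, Rps2, Rps3a1, the pseudogene Rps3a3, Rps12, Rps27l and Rpsa. The split followed the scaling, with 4 higher and 6 lower with plain totals and 4 higher and 3 lower with upper-quartile scaling. With the replicate block 19 were called (4 higher, 15 lower), and without both IL-2 libraries numbered 3 24 (6 higher, 18 lower). The count fell to 3 without replicate 1 of IL-12, to 4 without IL-12 replicate 2 or the first IL-12 80%TCM library, to 5 without replicate 3 of IL-12 80%TCM, to 6 without IL-12 replicate 3 or the second IL-12 80%TCM library, and to 7 without replicate 2 of IL-2. Only Rpl22l1, Rps2 and Rps27l passed under all 26 alternative settings.

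Rps2, which encodes a protein of the small subunit, was at 1633, 1521 and 1631 CPM in IL-12 and at 1295, 1338 and 1247 CPM in IL-12 80%TCM. The groups did not overlap (log2 fold change -0.30 ± 0.06, adjusted p = 0.00368, edgeR). The gene contains a small nucleolar RNA in an intron, and 43% of its 50-base stretches recur in other genes. Rpl27a, a large-subunit protein gene on chromosome 7 (GRCm38, 109519147 to 109522367, plus strand), went the other way, from 1136, 1155 and 1166 CPM to 1338, 1381 and 1252 CPM. Its rise (log2 fold change 0.20 ± 0.05, adjusted p = 0.0118, edgeR) did not pass without replicate 1 or 2 of IL-12 (adjusted p = 0.0828 and 0.0543) or without replicate 1 or 2 of IL-12 80%TCM (adjusted p = 0.0635 and 0.0927).

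Across both cytokines, 49 of 77 mitochondrial and 41 of 84 cytosolic members had a negative log2 fold change with TCM in IL-2 as well as in IL-12, against 35.0% of all genes. Mrpl27, Mrpl46 and Mrps5 were called lower in both, and Rps15a, a small-subunit protein gene with a start run of C and T, was called higher in both. Rps15a was at 947, 907 and 928 CPM in IL-2 and 969, 1125 and 1076 CPM in IL-2 80%TCM, and at 888, 877 and 886 CPM in IL-12 and 967, 1054 and 968 CPM in IL-12 80%TCM. Neither pair of groups overlapped, as for 13.1% of all genes (higher) with TCM in IL-2 and 26.9% with TCM in IL-12, but both calls were near the threshold (log2 fold changes of 0.19 and 0.17, adjusted p = 0.0461 and 0.0396, edgeR), and each was lost under 14 of 26 alternative settings, with adjusted p-values up to 0.212 and 0.222.

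**Figure D3:**
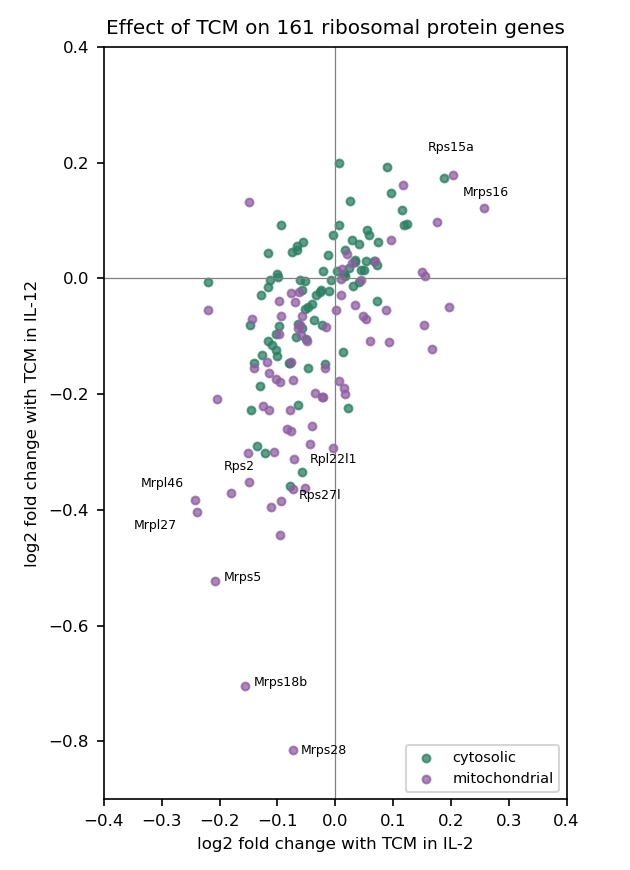
Log2 fold change with TCM in IL-2 (horizontal) and in IL-12 (vertical) for each of the 161 ribosomal protein genes, from 1 edgeR fit; the 2 comparisons share no library. Most mitochondrial points (49 of 77) lie in the lower left part, and Mrps28 and Mrps18b lie farthest down, at -0.82 and -0.70 in IL-12.

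The test of the difference between the TCM effects in IL-12 and in IL-2 passed for 1 of 161 members, Mrps28, against 1.58% of all genes (1.19% higher, 0.390% lower). The difference was -0.74 ± 0.14 on the log2 scale (adjusted p = 0.0176, edgeR). It did not pass without replicate 2 of IL-2 80%TCM (adjusted p = 0.0593), nor without any 1 of the 6 IL-12 and IL-12 80%TCM libraries (adjusted p from 0.0502 to 0.0636). Over the 25 alternatives run its adjusted p ranged from 0.000968 to 0.0636. Of the mitochondrial members, 65 of 77 had a negative difference (median -0.12, all genes 0.00256), and of the cytosolic ones 46 of 84 (median -0.00506). At an unadjusted p below 0.05 there were 11 mitochondrial members lower and 0 higher, and 4 cytosolic members higher and 2 lower. The share of all genes at that threshold is not given here, so these counts stand without a background. DESeq2 called 1 mitochondrial and 0 cytosolic members. With the replicate block, 8 mitochondrial and 2 cytosolic members passed, all lower. Without both IL-2 libraries numbered 3, 7 mitochondrial members (all lower) and 4 cytosolic members (3 higher, 1 lower) passed. The count was 4 for mitochondrial members without replicate 3 of IL-2 80%TCM. Calls over all genes moved as well, from 251 to between 105 and 2105 over the 25 alternatives run.

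The third comparison set IL-12 against IL-2 without TCM. Mitochondrial ribosomal protein genes were mostly higher with IL-12: 38 of 77 rose, 3 fell (Mrpl9, Mrps9 and Mrps35) and 36 did not pass. The 53.2% called compares with 45.1% of all genes, and the 49.4% higher with 22.1%. The median log2 fold change was 0.22, against -0.00843 over all genes. With plain totals in place of TMM factors, 24 were higher and 5 lower, with a median of 0.105 beside an all-gene median of -0.12. In all, 24 rises held under every scaling tried. Markers of other cells differed too: B cell markers summed to 16.6 to 20.1 CPM in IL-2 and 6.3 to 8.06 CPM in IL-12, where up to 1 of the 5 was at 0, and platelet markers to 101.1 to 124.9 CPM and 57.6 to 68.5 CPM. Their part in the result, in this set and in the cytosolic one, was not tested.

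Mrpl52, a large-subunit protein gene on chromosome 14 (GRCm38, 54426909 to 54429756, plus strand), had the largest rise of the 161 members in both cytokine comparisons. It was at 23.5, 23.3 and 19.6 CPM in IL-2 and at 37.3, 36.3 and 35.0 CPM in IL-12. With TCM it was at 21.7, 25.2 and 20.9 CPM in IL-2 and 35.6, 39.9 and 35.2 CPM in IL-12. The IL-12 libraries lay above the IL-2 libraries in each case, as for 28.4% of all genes without TCM and 25.1% with it (log2 fold changes of 0.71 ± 0.09 without TCM, adjusted p = 3.08e-05, and 0.71 ± 0.09 with it, adjusted p = 3.45e-05, edgeR). Its log2 fold change with TCM was 0.03 in either cytokine.

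Mrpl41, also of the large subunit, was at 27.6, 24.2 and 18.8 CPM in IL-2 and at 36.0, 36.6 and 34.2 CPM in IL-12. The IL-2 libraries were the more scattered, but all lay below (log2 fold change 0.60 ± 0.11, adjusted p = 0.000625, edgeR). Mrpl20 was at 42.8, 46.9 and 30.3 CPM in IL-2, the lowest in the third library, and at 61.0, 57.3 and 54.6 CPM in IL-12 (log2 fold change 0.53 ± 0.12, adjusted p = 0.00389, edgeR). Mrpl12, a large-subunit protein that also binds the mitochondrial RNA polymerase, was at 58.0, 61.2 and 46.8 CPM in IL-2 and at 73.6, 70.2 and 70.4 CPM in IL-12. The rise (log2 fold change 0.37 ± 0.08, adjusted p = 0.00285, edgeR) passed under all 26 alternative settings, as did those of Mrpl52, Mrpl41 and Mrpl20. Of the 3 genes that were lower with IL-12, Mrpl9 fell from 96.8, 88.9 and 84.3 CPM to 75.1, 76.3 and 74.9 CPM (log2 fold change -0.25 ± 0.06, adjusted p = 0.00598, edgeR) and also passed in all 26. The adjusted p of Mrps35 was 0.0537 without replicate 1 of IL-2 and 0.063 without replicate 2 of IL-12, and that of Mrps9 was 0.066 without replicate 1 of IL-12.

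In the cytosolic set 31 of 84 genes were called higher with IL-12 and 0 lower, with a median of 0.10. DESeq2 called 34 higher and 0 lower, and at an unadjusted p below 0.05 there were 36 higher and 1 lower, without the shares of all genes beside these counts. The share called, 36.9%, was below the 45.1% of all genes, although the share higher was above the 22.1% of all genes. Without the pseudogenes, 29 were higher, Rps3a2 and Rps3a3 being among the 31. The sign and number of these calls rest on the scaling. With plain totals 5 were higher and 2 lower, and the median was -0.01 beside an all-gene median of -0.12. With upper-quartile scaling 9 were higher and 1 lower, with medians of 0.02 for the set and -0.088 for all genes. The median of the set lay above that of all genes under each of these scalings. Under all scalings 5 were higher, namely Rpl7l1, Rpl22l1, Rpl27a, Rps10 and Rps27l, of which Rpl7l1, Rpl22l1 and Rps27l are paralogues of core ribosomal proteins. Without replicate 3 of IL-2 the count was 16, without replicate 1 of IL-12 20, and without replicate 3 of IL-12 17. Rps6, the ribosomal protein phosphorylated downstream of mTOR, was at 1404, 1332 and 1324 CPM in IL-2 and at 1490, 1512 and 1518 CPM in IL-12 (log2 fold change 0.15 ± 0.05, adjusted p = 0.0171, edgeR). It did not pass without replicate 2 or 3 of IL-2 or replicate 3 of IL-12 (adjusted p = 0.0636, 0.0605 and 0.0654), and over the alternatives its log2 fold change went down to 0.04 and its adjusted p up to 0.483. Rplp0, of the ribosomal stalk, was at 3189, 3102 and 2915 CPM and 3192, 3212 and 3245 CPM and did not pass (log2 fold change 0.07 ± 0.05, adjusted p = 0.313, edgeR).

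**Figure D4:**
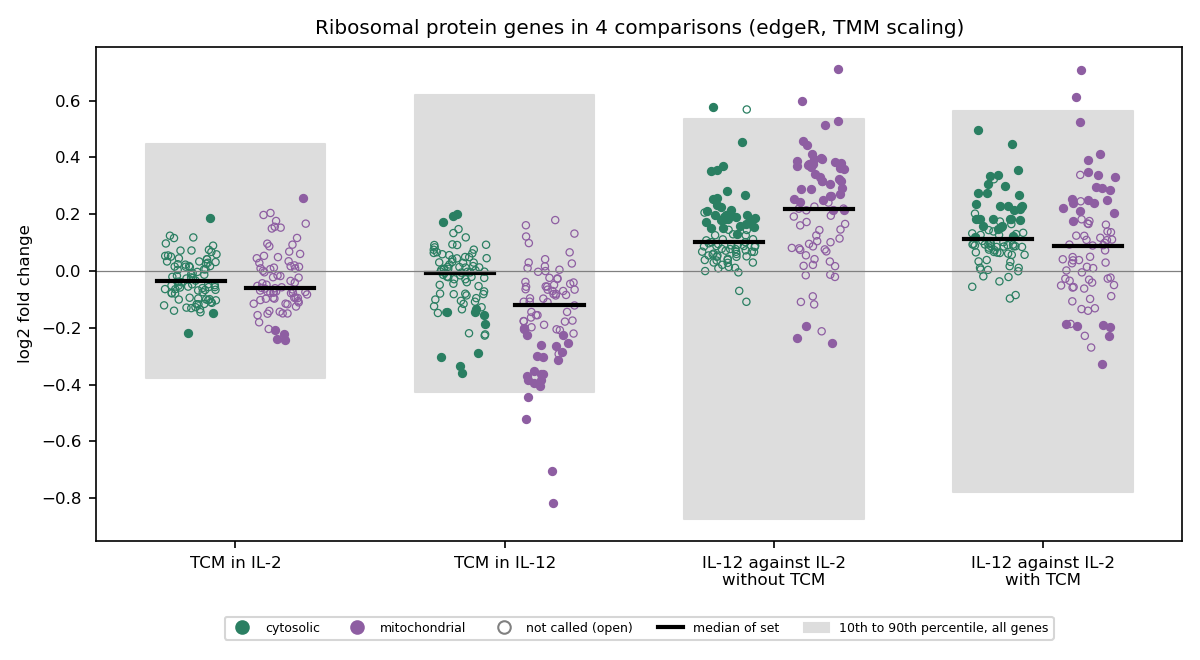
Log2 fold changes of the 84 cytosolic and 77 mitochondrial ribosomal protein genes in 4 comparisons (edgeR with TMM scaling); filled points passed an adjusted p below 0.05, black lines are medians, and grey bands span the 10th to 90th percentile of all 15897 genes. The mitochondrial medians are -0.12 for TCM in IL-12 and 0.22 for IL-12 against IL-2 without TCM.

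The fourth comparison set IL-12 against IL-2 in the presence of TCM. The mitochondrial set was more divided: 20 members were higher with IL-12, 6 were lower (Mrpl24, Mrpl32, Mrpl45, Mrps5, Mrps9 and Mrps35) and the median was 0.09. The 33.8% called is below the 39.0% of all genes. B cell markers summed to 17.0 to 19.9 CPM in IL-2 80%TCM and 8.5 to 9.58 CPM in IL-12 80%TCM, and platelet markers to 41.67 to 53.65 CPM and 23.2 to 29.2 CPM, and their part in the results of this comparison was not tested. With plain totals the split was 6 higher and 13 lower, with a median of -0.03 beside an all-gene median of -0.12. With upper-quartile scaling it was 9 higher and 11 lower, with medians of 0.01 for the set and -0.0835 for all genes. The rises of Mrpl4, Mrpl10, Mrpl18, Mrpl33, Mrpl41 and Mrpl52 passed under all 26 settings. The total called was 14 and 17 without replicate 1 or 2 of IL-2 80%TCM, and 13, 15 and 11 without replicates 1, 2 and 3 of IL-12 80%TCM.

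Mrpl33, a large-subunit protein, was at 18.8, 16.8 and 14.1 CPM in IL-2 80%TCM and at 23.9, 25.7 and 26.2 CPM in IL-12 80%TCM, without overlap (log2 fold change 0.61 ± 0.10, adjusted p = 0.000255, edgeR). Mrpl45 was at 51.4, 54.8 and 71.8 CPM in IL-2 80%TCM, the third library being high, and at 48.6, 48.3 and 45.1 CPM in IL-12 80%TCM (log2 fold change -0.33 ± 0.10, adjusted p = 0.0204, edgeR). Its adjusted p was 0.0759 with the replicate block and 0.0654 without replicate 3 of IL-12 80%TCM, within a range of 0.00053 to 0.0759 over all alternatives. Mrps9 had a log2 fold change of -0.19 with TCM as well as without it, and with TCM its adjusted p was 0.0501 without replicate 3 of IL-12 80%TCM. Mrpl24 (log2 fold change -0.20 ± 0.07, adjusted p = 0.0333, edgeR) did not pass without replicate 1 or 2 of IL-2 80%TCM (adjusted p = 0.0771 and 0.0583) or replicate 1 or 3 of IL-12 80%TCM (adjusted p = 0.116 and 0.0768).

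Of the cytosolic genes, 29 of 84 were higher with IL-12 in the presence of TCM and 0 lower, with a median of 0.11. The 34.5% called compares with 39.0% of all genes, of which 19.5% were higher. DESeq2 called 31 higher and 0 lower, and 34 were higher and 0 lower at an unadjusted p below 0.05, without the shares of all genes beside these counts. As without TCM, the split followed the scaling. Plain totals gave 8 higher and 4 lower, with a median of -0.0043 beside an all-gene median of -0.12. Upper-quartile scaling gave 14 higher and 2 lower, with medians of 0.04 for the set and -0.0835 for all genes. The count was 18 without replicate 1 of IL-2 80%TCM and 16, 13 and 19 without replicates 1, 2 and 3 of IL-12 80%TCM. Rpl27a, whose run of C and T at the start base is 15 bases long within the window examined, was at 919, 1013 and 979 CPM in IL-2 80%TCM and at 1338, 1381 and 1252 CPM in IL-12 80%TCM (log2 fold change 0.45 ± 0.05, adjusted p = 1.52e-05, edgeR). Rpl41 was at 1084, 969 and 1006 CPM and 1280, 1371 and 1267 CPM (log2 fold change 0.36 ± 0.06, adjusted p = 0.000343, edgeR). In both genes all IL-12 libraries lay above all IL-2 libraries, and both passed under all 26 settings.

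Paralogues were read beside the genes they resemble. Rpl22l1 and Rps27l encode close relatives of the ribosomal proteins Rpl22 and Rps27, which can take their place in the ribosome, and Rpl7l1 is a relative of Rpl7 that acts in ribosome assembly. Rpl22l1 was at 55.3, 45.3 and 54.0 CPM in IL-2, 47.1, 46.0 and 55.3 CPM in IL-2 80%TCM, 71.0, 67.9 and 73.3 CPM in IL-12 and 56.3, 53.9 and 58.1 CPM in IL-12 80%TCM. The IL-12 libraries stood above those of every other group. It rose with IL-12 (log2 fold change 0.46 ± 0.08, adjusted p = 0.000652, edgeR) and fell when TCM was present with IL-12 (log2 fold change -0.33 ± 0.08, adjusted p = 0.00957, edgeR). Both calls passed under all 26 alternatives. Rpl22 itself was at 487, 477 and 462 CPM in IL-2 and 432, 438 and 452 CPM in IL-12 and was called in none of the 4 comparisons.

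Rps27l, whose gene is a target of p53, had the same order of groups. It was at 88.1, 88.7 and 73.1 CPM in IL-2, 81.5, 82.9 and 72.6 CPM in IL-2 80%TCM, 113, 107 and 103 CPM in IL-12 and 80.6, 89.3 and 81.8 CPM in IL-12 80%TCM. The IL-12 group again stood above the other 3 groups, which overlapped. The rise with IL-12 (log2 fold change 0.37 ± 0.08, adjusted p = 0.00211, edgeR) and the fall with TCM in IL-12 (log2 fold change -0.36 ± 0.08, adjusted p = 0.00487, edgeR) passed under all 26 alternatives. Rps27 was called in none of the 4 comparisons.

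As a ratio within each library, which does not depend on scaling, there were 10.9 ± 1.17 (SD, n = 3) Rpl22l1 counts per 100 Rpl22 counts in IL-2, 10.2 ± 0.79 in IL-2 80%TCM, 16.0 ± 0.499 in IL-12 and 11.6 ± 0.805 in IL-12 80%TCM. Rps27l per 100 Rps27 counts was 12.1 ± 0.698, 11.3 ± 1.95, 15.3 ± 1.16 and 11.4 ± 0.308 in the same order. In both ratios every IL-12 library lay above every other library. Rpl7l1 per 100 Rpl7 counts was 4.5 ± 0.34, 4.86 ± 0.0795, 5.48 ± 0.301 and 5.84 ± 0.139. It was higher in every library with IL-12 than in any library with IL-2, and the IL-12 groups overlapped. No test was run on these ratios, and 3 libraries against 3 could give no exact permutation p below 0.10.

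**Figure D5:**
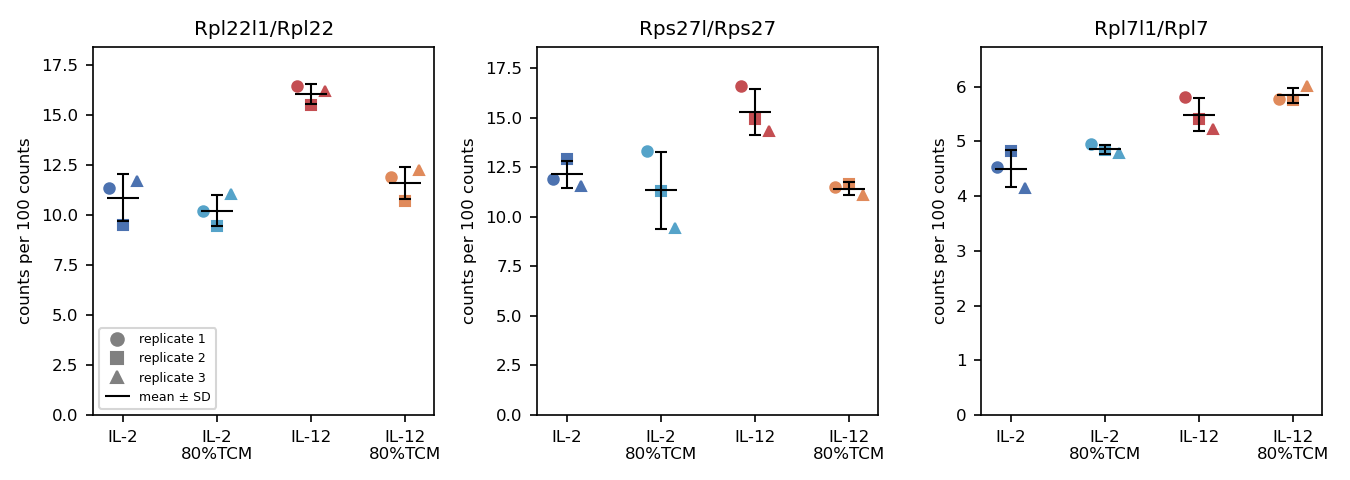
Counts of a paralogue per 100 counts of the core ribosomal protein gene in each library (symbols are replicates, black lines the mean and SD, n = 3). The 3 IL-12 libraries lie above all others for Rpl22l1 (15.5 to 16.4) and Rps27l (14.3 to 16.6), and both IL-12 groups lie above both IL-2 groups for Rpl7l1.

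Ranking the 4 group means for each gene, 58 of 77 mitochondrial members (75.3%) were highest in IL-12, against 28.3% of all genes. Their lowest mean was in IL-2 80%TCM for 33, in IL-12 80%TCM for 23, in IL-2 for 18 and in IL-12 for 3. These are 42.9%, 29.9%, 23.4% and 3.9%, against 25.7%, 23.1%, 21.1% and 30.1% of all genes. The cytosolic members were highest in IL-12 (45) or IL-12 80%TCM (34, or 40.5%, against 23.6% of all genes). They were lowest in IL-2 80%TCM (49) or IL-2 (29). The orders of both sets carry the scaling between the cytokines. Changes were small in both sets: no member reached a log2 fold change of 1 in any comparison. The median size of the change, without its sign, was 0.0584, 0.0649, 0.105 and 0.112 for cytosolic members in the 4 comparisons in the order given, 0.0783, 0.144, 0.236 and 0.137 for mitochondrial members, and 0.168, 0.222, 0.295 and 0.266 for all genes.

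Genes that build ribosomes were read from lists beside the members. Among 32 genes for assembly of the cytosolic ribosome, such as the nucleolar methyltransferase Fbl and the small-subunit processing factor Utp20, 20 fell and 1 rose (Rrp1b) with TCM in IL-12, with a median log2 fold change of -0.37. Over all genes 14.2% were lower and 14.8% higher. Fbl fell by 0.60 ± 0.08 (adjusted p = 0.00014, edgeR) and Utp20 by 1.16 ± 0.16 (adjusted p = 0.000216, edgeR) on the log2 scale. With IL-12 against IL-2 without TCM, 21 of the 32 rose and 0 fell, against 22.1% of all genes higher, among them Nop56, a core protein of box C/D small nucleolar particles (log2 fold change 0.69 ± 0.09, adjusted p = 3.01e-05, edgeR). Over the alternatives 13 to 25 were higher and 0 or 1 lower in that comparison, and 15 to 29 lower with TCM in IL-12. With TCM in IL-2, 2 fell and 0 rose, beside 7.82% lower and 6.73% higher over all genes, but 16 fell without both IL-2 libraries numbered 3. With IL-12 against IL-2 with TCM, 8 were higher and 2 lower, beside 19.5% and 19.4% of all genes. The counts were 4 higher and 7 lower with plain totals, and 5 and 4 with upper-quartile scaling. Without both IL-2 libraries numbered 3 they were 10 and 8.

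Of 21 mitochondrial ribosome assembly genes tested, 5 fell with TCM in IL-12, among them Fastkd2, an RNA-binding factor of the mitochondrial large subunit (log2 fold change -0.73 ± 0.09, adjusted p = 8.67e-05, edgeR), and 0 rose. Without both IL-2 libraries numbered 3, 8 fell and 2 rose. With IL-12 against IL-2 without TCM, 5 rose and 4 fell, beside 22.1% higher and 23.0% lower over all genes. Of 7 genes for mitochondrial transcription, Tfam, which packages and helps transcribe mitochondrial DNA, and Tfb2m fell with TCM in IL-12 (log2 fold changes of -0.28 and -0.29). Only 1 of the 7 was called lower with plain totals and 1 with upper-quartile scaling, and 1 to 3 fell over the alternatives. Of 16 mitochondrial translation factors 3 fell and 0 rose, and of 11 RNA polymerase I genes 3 fell and 0 rose in that comparison, beside 14.2% lower over all genes. Over the alternatives 0 to 6 of these translation factors and 1 to 6 of these polymerase genes fell, with 6 of each without both IL-2 libraries numbered 3. Among 19 translation factors and other messengers with a pyrimidine start, 7 rose and 2 fell with IL-12 without TCM. Over all genes 22.1% were higher and 23.0% lower in that comparison. With plain totals 3 of the 19 rose and 5 fell. With TCM in IL-12, 1 of the 19 rose and 5 fell (1 to 6 over the alternatives), beside 14.8% higher and 14.2% lower over all genes.

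Of 15 genes known as regulators of ribosomal gene expression, 6 were higher and 3 lower with IL-12 without TCM, and 3 higher and 4 lower with plain totals, beside 22.1% higher and 23.0% lower over all genes. Myc, a transcription factor that promotes ribosome production, was higher by 0.69 ± 0.09 without TCM (adjusted p = 3.3e-05, edgeR) and by 0.88 ± 0.09 with it (adjusted p = 3.91e-06, edgeR), both as log2 fold changes. Rptor, which encodes a subunit of the kinase complex mTORC1, had log2 fold changes of -0.56 and -0.78 in the same comparisons (adjusted p = 7.58e-07 and 2.71e-08, edgeR). Gabpb1, a subunit of a factor that binds CCGGAAG-type sites, rose in all 4 comparisons, by 0.21 to 0.42 on the log2 scale (adjusted p = 0.0486 with TCM in IL-2, edgeR). Over the alternatives 0 to 5 of the 15 regulators were called higher with TCM in IL-2, so the Gabpb1 call there was not always kept. Of 5 mitochondrial ribosomal protein genes whose symbols the pattern does not cover, Ptcd3 fell with TCM in IL-12.

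Cytosolic genes were last read by their start sequence. The 22 cytosolic members with a run beginning within 2 bases of the start had median log2 fold changes of 0.00486, 0.00708, 0.10 and 0.09 in the 4 comparisons, and the 39 matched members without one had -0.05, -0.00565, 0.10 and 0.13. These medians are descriptions, with no test between the groups of genes. The split depends on where the start is annotated, and members without such a run there may still have the tract. Split by intronic small nucleolar RNAs, in IL-12 against IL-2 without TCM, 10 of 30 members with one and 21 of 54 without one were called, all higher, beside 22.1% of all genes higher, and these calls rest on the scaling as those of the whole cytosolic set do.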

How the data were processed

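Total RNA of 12 libraries was sequenced. Gene counts were deposited in 1 table, and the submitters' processing notes name the aligner STAR 2.7.7a, edgeR without a version, and the human build GRCh38, although the gene IDs are mouse. The strand setting of the counting and the annotation are not given in the sources used here. A second deposited file per library holds a signal, the count over a constant of that library. It was used to check the table and as the input of the limma fits. Symbols were matched by gene ID, and positions, exon overlaps and transcript lengths come from GENCODE vM21 (GRCm38). Promoter windows come from RefSeq (GRCm38.p6). No protein sequences were used here.

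Counts were scaled by TMM, filtered with filterByExpr (minimum count 10) and fitted with edgeR 4.0.16 (R 4.3.3), quasi-likelihood, all 12 libraries and 1 mean per group, with no block; p-values were adjusted by Benjamini-Hochberg over the 15897 genes tested, with a threshold of 0.05. CPM is per 1000000 counts on TMM-scaled totals. The 4 group comparisons and the difference of the TCM effects were tested. Members were described by counts of calls and medians, with no test of a set.

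The members and lists were chosen with earlier results of these data known. Named genes are, for each set and comparison, up to 3 highest and 3 lowest log2 fold changes among called members whose groups did not overlap and whose higher group had a mean of 10 CPM or more, plus paralogue pairs and set anchors. From the related lists, genes were named among the 2 smallest p in each direction. Others are said to be chosen after their values were seen, or are named to complete a count.

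Alternatives were DESeq2 1.42.0 (its size factors and its test), upper-quartile scaling and plain totals, the last chosen after seeing the data. Filters tried were none or a mean of at least 5 CPM. The limma 3.58.1 fits took log2 of the deposited signal plus 1, 0.1 or 5. Also tried were a fit to the compared groups alone, the replicate block, and leaving out libraries. Same-numbered libraries deviated together in the IL-2 groups (correlations of 0.38, 0.34 and 0.65) but not in the IL-12 groups (0.1, 0.0035 and 0.015). Libraries 1 and 2 of the IL-2 groups correlated as much across numbers (0.4 and 0.36), so the pairing rests on library 3 and on the data, not on the labels. The test was checked on simulated counts. Totals of 19500568 to 49638920 counts set the precision, which is lowest for members near 1 CPM.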

Additional observations from a re-analysis of the deposited data

Results flagged for a closer look

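The effect of TCM on Mrps28 differed between the cytokines by the test of the difference itself. The log2 fold change with TCM in IL-12 minus that in IL-2 was -0.74 (adjusted p = 0.0176, edgeR). It did not pass under 7 of the 25 alternative settings. All 3 IL-12 80%TCM libraries lay below all 3 IL-12 libraries, and the IL-2 groups overlapped.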

How the results depend on the processing

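No named gene recomputed under each alternative changed sign while called. With plain totals, however, the median log2 fold change turned to -0.01 for cytosolic members between the cytokines alone. In the presence of TCM it turned to -0.03 for mitochondrial members (6 higher, 13 lower) and -0.0043 for cytosolic ones. The all-gene median with plain totals was -0.12 in either comparison of the cytokines. Upper-quartile scaling called 2 mitochondrial members for TCM in IL-2, 7 cytosolic for TCM in IL-12, and 10 and 16 cytosolic for IL-12 against IL-2 without and with TCM; plain totals gave 7 and 12 for the last pair. Without a filter there were 2 mitochondrial members for TCM in IL-2, 6 cytosolic for TCM in IL-12 and 15 mitochondrial for IL-12 against IL-2 with TCM. For TCM in IL-2, limma called 1 cytosolic and 3 mitochondrial members with a pseudocount of 1, 3 mitochondrial with 0.1 and 1 cytosolic with 5; with 1 and no filter it called 0 and 2, then 3 cytosolic for TCM in IL-12 and 13 mitochondrial for IL-12 against IL-2 with TCM. A fit to only the groups compared gave 0 and 0 for TCM in IL-2, 25 cytosolic and 39 mitochondrial for TCM in IL-12, and 19 and 14 for IL-12 against IL-2 with TCM. With a replicate block for the IL-2 groups alone, there were 5 cytosolic members for TCM in IL-2, 19 cytosolic and 35 mitochondrial for TCM in IL-12, and 2 and 8 for the difference; a block over all libraries moved no count by over 1.5 times, and the pairing of replicate numbers was not seen in the IL-12 groups. Without both IL-2 libraries numbered 3 the cytosolic and mitochondrial counts were 12 and 9 for TCM in IL-2, 24 and 39 for TCM in IL-12, and 4 and 7 for the difference. Leaving out 1 library at a time gave, for cytosolic and mitochondrial members, 0 to 4 and 1 to 10 for TCM in IL-2, 3 to 15 and 11 to 31 for TCM in IL-12, 16 to 34 and 35 to 44 for IL-12 against IL-2 without TCM, 13 to 28 and 11 to 30 with TCM, and 0 to 0 and 0 to 4 for the difference. The cause of these changes was not tested. Choosing members by CPM on plain totals kept the same number, 161. Counts of genes near the 1 CPM minimum, such as Rpl24, limit what could be detected, and the planned description of proteins was not run.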
